A study of Mus musculus with 30 samples.

Results

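Whole retinas of mice with the *E168d2* mutation of *Crx* were compared at postnatal day 21 (P21) between *E168d2/+* and *E168d2neo/+*, each with 3 RNA-seq libraries, A, B and C, which are 6 of the 30 libraries of the series. The 6 were chosen by genotype and age alone. The series holds WT, *R90W/+*, *E168d2/+* and *E168d2neo/+* at P10 and P21, and *E168d2/d2* and *R90W/W* at P10, all on C57BL6/J and 3 libraries each. By its label each library is a pool of 4 retinas, male and female, which holds for the 6 libraries compared (*Xist*, given below) and not for every library of the series. WT P21 A, used here for position only, had 3.048 CPM of *Xist* against 1503 and 1638 in WT B and C. The *E168d2* allele carries a 2-base deletion at the glutamate codon that names it, and the *E168d2neo* allele is the same mutation with a neomycin cassette left in an intron, which the study describes as making less of the mutant protein. Both groups are heterozygous and keep a WT *Crx* allele, and the mutation is a germline knock-in and so present in every cell of the mouse. The comparison asks which genes differ between mice that share a mutation and differ in how much of the mutant protein is made. Values are CPM, the reads on a gene scaled to a common total of reads on genes, and differences are on the log2(CPM + 0.1) scale, *E168d2/+* minus *E168d2neo/+*, with the standard error after ±. In bulk retina, fewer cells of a type and less RNA per cell cannot be told apart.

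CRX is a homeodomain transcription factor of rods and cones. It binds upstream of most genes of phototransduction. In this cascade light-activated opsin drives a G protein (transducin) and a phosphodiesterase that lowers cGMP and closes cGMP-gated channels. Guanylate cyclases, their activator proteins and arrestin restore the dark state. CRX works with NRL, NR2E3 and OTX2, and mutations of human *CRX* cause dominant retinal degenerations.

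The mutation lies in the last of the 4 exons of *Crx*, on the minus strand of chromosome 7. The sequence below is the reference (GENCODE transcripts on NCBIM37, the build named mm9) around the mutated codon of *Crx*, whose reading frame has 299 codons, at chr7:16453495-16453557, with that codon in capitals. It is shown because both alleles compared here carry the deletion at this codon, behind the homeodomain.
Crx mutated codon: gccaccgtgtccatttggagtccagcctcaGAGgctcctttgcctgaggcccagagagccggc

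*Crx* itself was higher in *E168d2/+*. Its CPM were 1829.9, 1611 and 1788 in *E168d2/+* A, B and C, 1128, 1069.8 and 1212 in *E168d2neo/+* and 1151, 1149 and 1107 in WT. All 3 *E168d2/+* libraries lay above every *E168d2neo/+* and WT library, while *E168d2neo/+* and WT overlapped. The log2 difference was 0.62 ± 0.074, FDR 0.00899, a fold of 1.53, and at P10 it was 0.27 ± 0.066, FDR 0.0878. Counts on a gene do not separate the mutant from the WT transcript. Of 22 other genes tested within 1 Mb of *Crx*, 0 passed the test in either P21 fit described below. Their log2 differences ran from -0.58 for *Crxos1* to 0.32 for *Bbc3*.

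A promoter is shown for each direction of change seen in all 3 *E168d2/+* libraries: that of *Crx*, and that of *Rbp3*, which encodes the retinoid-binding protein of the space between photoreceptors and pigment epithelium. Both are from RefSeq (GRCm38.p6), 250 bases before to 50 after the start of the gene, 5′ to 3′ on the gene's strand, with the CRX core motif TAATCC or its reverse complement GGATTA in capitals. *Crx* (chr7:15879906-15880205, minus strand) held 2 matches, which began 94 and 21 bases before the start. *Rbp3* (chr14:33953753-33954052, plus strand) held 1, which began 69 bases before it. Of all 32851 promoter windows of this length in the table, 7.06% held the motif. A match is a description of these letters and not a bound site.
Crx promoter: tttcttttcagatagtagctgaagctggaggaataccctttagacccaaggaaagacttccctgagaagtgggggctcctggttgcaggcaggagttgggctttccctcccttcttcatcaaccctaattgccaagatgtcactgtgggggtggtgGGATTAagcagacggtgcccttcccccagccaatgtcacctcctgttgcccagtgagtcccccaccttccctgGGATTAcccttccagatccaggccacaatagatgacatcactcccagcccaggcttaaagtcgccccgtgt
Rbp3 promoter: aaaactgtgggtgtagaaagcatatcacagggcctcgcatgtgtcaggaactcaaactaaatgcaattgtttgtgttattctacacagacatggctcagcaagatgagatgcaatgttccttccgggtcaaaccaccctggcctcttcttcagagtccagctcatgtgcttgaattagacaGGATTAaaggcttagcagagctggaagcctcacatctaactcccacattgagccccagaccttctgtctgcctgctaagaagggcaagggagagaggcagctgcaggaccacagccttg

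The 6 libraries held 18300000 to 26000000 reads on genes, as judged by the CPM that a single read is worth, so that 5 CPM stood for 91.5 to 130 reads. *E168d2neo/+* replicate C held 13210 CPM of lens crystallins against 36.4 to 97.6 in the other 5, and crystallins were left out of the test. In a principal component analysis of the 11903 genes tested, the first component, with 52.4% of the variance, placed the *E168d2neo/+* libraries at -12.1, -11.5 and -8.54, *E168d2/+* A and C at 20.9 and 11.6, and *E168d2/+* B between them at -0.399. *E168d2/+* B thus stood apart from its group, and the counts are given with all 6 libraries and without B.

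With all 6 libraries, 289 of 11903 genes (2.43%) passed an FDR of 0.05 in limma, 219 higher (1.84%) and 70 lower (0.588%) in *E168d2/+*. Only 22 of the 289 differed by 2-fold or more, 19 higher and 3 lower. The groups did not overlap for any of the 289, and this held for 30.6% of all genes tested, 21.9% with *E168d2/+* higher and 8.74% with it lower. The balance of directions rested on the scaling: the median over all genes was 0.0431 in log2, and with libraries scaled to a common median 87 genes were higher and 89 lower. The count also rested on single libraries, and was 1719 without *E168d2/+* B, and 65 and 27 without A and C. Without *E168d2neo/+* A, B or C it was 12, 25 or 39.

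**Figure D1:**
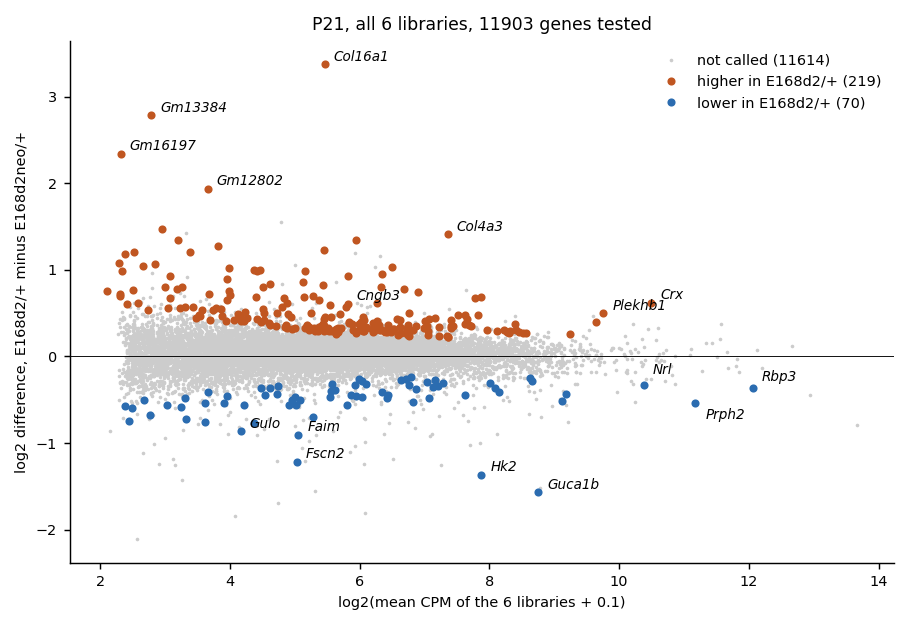
Each point is 1 of 11903 genes at P21, with log2 of the mean CPM of the 6 libraries on the horizontal axis and the log2 difference, *E168d2/+* minus *E168d2neo/+*, on the vertical axis. The 219 genes higher and 70 lower in *E168d2/+* are coloured, *Col16a1* lies at the top at 3.37 and *Guca1b* is the lowest called gene at -1.57.

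The 10 largest rises were led by *Col16a1*, a collagen chain that associates with fibrils. Its CPM were 83.5, 54.97 and 103 in *E168d2/+* and 7.57, 8.04 and 6.73 in *E168d2neo/+*, while WT had 5.83, 6.39 and 7.38. The difference was 3.37 ± 0.19, FDR 0.000143, a fold of 10.4, and it passed the test whichever single library was left out. *Col4a3*, a basement membrane collagen chain, had 257, 175 and 283 CPM against 85.8, 71.9 and 109.5, with 17.1, 15.7 and 13.96 in WT (1.41 ± 0.18, FDR 0.00977). *Slc6a2*, the noradrenaline transporter, had 12.5, 8.20 and 13.2 CPM against 4.29, 4.19 and 3.36 (1.47 ± 0.19, FDR 0.00902). For these 3 genes B lay above every *E168d2neo/+* library and below A and C.

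*Irf5*, a transcription factor of interferon signalling, had 16.9, 8.09 and 14.4 CPM against 5.74, 3.81 and 5.34 (1.34 ± 0.26, FDR 0.0382). *Pdzrn4*, a protein with PDZ and RING domains, had 17.6, 16.6 and 25.4 against 7.04, 9.54 and 7.56 (1.28 ± 0.17, FDR 0.0123). The other 5 were transcripts with systematic names, *Gm13384*, *Gm16197*, *Gm12802*, *5430407P10Rik* and *Gm1614*, with differences of 2.79, 2.34, 1.93, 1.35 and 1.23. *Gm13384* and *Gm16197* were under 2 CPM in all *E168d2neo/+* libraries. Further collagen genes among the 289 included *Col17a1*, with 22.9, 17.8 and 22.6 CPM against 9.55, 10.8 and 10.6 (1.02 ± 0.12, FDR 0.00899). Another was *Col27a1*, with 72.8, 65.3 and 84.5 against 37.1, 37.9 and 41.1 (0.93 ± 0.093, FDR 0.00578). *Col8a2* did not pass (0.051, FDR 0.942), and collagen genes were not counted as a list.

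The largest fall was in *Guca1b*, which encodes an activator of the photoreceptor guanylate cyclases. Its CPM were 132, 428 and 160.4 in *E168d2/+*, 649.9, 565 and 645 in *E168d2neo/+* and 884, 799 and 925 in WT, and B lay much nearer to *E168d2neo/+* than A and C did (-1.57 ± 0.34, FDR 0.0497). *Hk2*, the hexokinase of photoreceptor glycolysis, had 88.6, 191 and 124 CPM against 407, 342 and 257 (-1.37 ± 0.25, FDR 0.0321). *Fscn2*, a retinal protein that bundles actin, had 13.8, 32.6 and 15.4 against 47.2, 38.8 and 47.8 (-1.21 ± 0.27, FDR 0.0494). All 3 of these calls were lost in each fit that left out a library other than B. Such losses were not particular to them: of 41 named genes called with 6 libraries, 6 passed whichever single library was left out.

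*Faim*, an inhibitor of Fas-mediated cell death, had 18.2, 30.8 and 21.1 CPM against 45.5, 40.9 and 42.2 (-0.91 ± 0.16, FDR 0.0312). *Gulo*, the last enzyme of vitamin C synthesis, had 10.8, 13.6 and 13.6 against 23.2, 23.4 and 22.4 (-0.86 ± 0.10, FDR 0.00899), and *Adrb1*, a beta-adrenergic receptor, 14.2, 17.6 and 13.8 against 27.4, 26.2 and 23.9 (-0.77 ± 0.11, FDR 0.0144). For *Gulo* the 3 *E168d2/+* libraries lay together. The remaining falls were *Tmem26*, *Atp2a3*, *Cd93* and *Wisp1*, with differences of -0.76, -0.75, -0.72 and -0.70. They encode a membrane protein, a calcium pump of the endoplasmic reticulum, a receptor of endothelial cells and a matricellular protein.

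WT libraries of the same age, which the test did not use, gave the position of both mutants. Of the 289 genes, 245 (84.8%) had all 3 *E168d2/+* libraries above or below every WT and *E168d2neo/+* library, beside 19.7% of all genes tested. For 72 (24.9%) the *E168d2neo/+* libraries lay outside both other groups, 21 above and 51 below, beside 6.03% of all genes tested. These counts share 36 genes, in which WT lay between the mutants, so that *E168d2neo/+* alone lay outside for 36. Without WT A, a choice made after its *Xist* level was seen, the counts were 262 and 85, and 61 were shared. Leaving out a library loosens the criterion for every gene. The share of all genes tested rose as well for both mutants, for *E168d2neo/+* from 6.03% to 7.35%, and 1.79% were then shared. The rise in the counts is therefore not particular to the called genes. The call itself asks that the mutants lie apart, so these shares are a description. *Tmem26* had 8.75, 9.02 and 9.22 CPM in *E168d2/+* and 9.37, 9.64 and 8.62 in WT, while *E168d2neo/+* had 15.1, 16.4 and 14.5 (-0.76 ± 0.092, FDR 0.00899 between the mutants). *Plekhb1*, a protein with a pleckstrin homology domain that is abundant in photoreceptors, had 986, 1069 and 981 CPM in *E168d2/+*, 916, 875 and 914 in WT and 723, 738 and 685 in *E168d2neo/+* (0.50 ± 0.061, FDR 0.00899). In both genes *E168d2/+* was the mutant nearer to WT.

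Without B, 1719 genes (14.4%) passed the test, 1215 higher (10.2%) and 504 lower (4.23%), and these included all 289. Without B the groups did not overlap for 49.3% of all genes tested. B was left out with its values known. Of the 1719, 35 were higher and 55 lower by 2-fold or more. With libraries scaled to a common median the split without B was 522 higher and 745 lower. Leaving out a further library gave 798 (*E168d2/+* A, which leaves C alone and assumes that it varies like the *E168d2neo/+* libraries), 2632 (*E168d2/+* C, with the same assumption for A), 535 (*E168d2neo/+* A) or 467 (*E168d2neo/+* B). The level of B in these genes entered their choice only through the filter on low CPM, and was placed on a scale from 0 at the *E168d2neo/+* mean to 1 at the mean of *E168d2/+* A and C. Both ends of this scale come from the libraries that chose the genes. A left-out library therefore tends to lie below 1 by that choice alone, here and for the lists below. The median position of B was 0.468 over the 1215 higher genes, with the middle of the distribution between 0.243 and 0.692 (quartiles). Over the 504 lower genes it was 0.272, with quartiles of 0.00356 and 0.634. B lay below 0.25 for 242 of the lower genes (48.0%) and 313 of the higher genes (25.8%), and above 0.75 for 87 and 243.

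**Figure D2:**
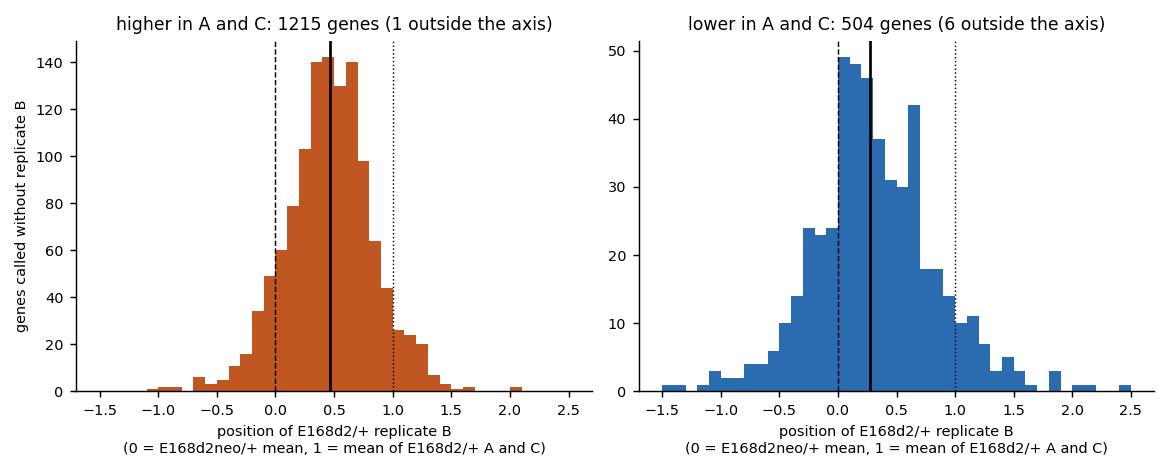
The panels plot the position of *E168d2/+* replicate B in genes called without it, 1215 higher on the left and 504 lower on the right, with the number of genes on the vertical axis. The dashed line marks the *E168d2neo/+* mean, the dotted line the mean of *E168d2/+* A and C, and the solid line the median of 0.468 on the left and 0.272 on the right.

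Most rod phototransduction genes were lower in *E168d2/+* once B was left out. Of 21 genes, 1 (*Guca1b*) was lower and 0 higher with 6 libraries. Without B, 17 (81.0%) were lower and 0 higher, beside 4.23% and 10.2% of all genes tested. Their median log2 difference was -0.408 with B and -0.627 without, against 0.0431 and 0.0618 over all genes tested, and 20 of the 21 differences were below 0. By library, the median against the *E168d2neo/+* mean was -0.735 in A, -0.11 in B and -0.52 in C, and between -0.0152 and 0.0231 in the *E168d2neo/+* libraries.

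Among the members that restore the dark state or regulate its return is *Rcvrn*, recoverin, which inhibits the opsin kinase. *Rcvrn* had 115, 513 and 165 CPM in *E168d2/+*, 598, 638 and 597 in *E168d2neo/+* and 862, 957 and 962 in WT. A and C were far below every other library and B lay just under *E168d2neo/+*, so that the difference was -1.52 ± 0.42, FDR 0.079 with B and -2.15 ± 0.12, FDR 2.63e-05 without. *Gucy2e*, a photoreceptor guanylate cyclase, had 219, 467 and 256 against 486, 475 and 451 (-0.66 ± 0.22, FDR 0.113, and -0.99 ± 0.07, FDR 6.65e-05 without B). Its paralog *Gucy2f* had 117, 191 and 118 against 211, 218 and 194, and the activator *Guca1a* 118, 220.1 and 119 against 249, 203 and 248. Without B these 2 differed by -0.82 ± 0.06, FDR 7.05e-05 and -0.97 ± 0.086, FDR 0.000238. *Grk1*, the kinase of the rod pigment, differed by -0.47 and *Rgs9bp*, the anchor of the protein that switches transducin off, by -0.52 without B.

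Of the activating members, *Gnat1*, rod transducin alpha, had 5251, 8451 and 6523 CPM against 9333, 8969 and 8828 (-0.45 ± 0.15, FDR 0.118, and -0.63 ± 0.10, FDR 0.00668 without B), and *Gngt1*, its gamma subunit, 354, 626 and 448 against 676, 684 and 687 (-0.78 without B). The phosphodiesterase subunits *Pde6g*, *Pde6a* and *Pde6b* differed by -0.63, -0.43 and -0.26 without B. The rod channel subunits *Cngb1* and *Cnga1* differed by -0.68 and -0.31, and the exchanger *Slc24a1* by -0.69. *Pdc*, phosducin, which binds transducin beta and gamma, had 1544, 2081 and 1524 CPM against 1949, 1753 and 1803, with B above all *E168d2neo/+* libraries. Over the 17 lower genes the position of B ran from -0.711 for *Pdc* to 0.437 for *Pde6b*, with a median of 0.158.

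Cone phototransduction genes went both ways. Of 12 genes, 0 were lower and 2 higher (*Cngb3* and *Gnb3*, 16.7%) with 6 libraries, beside 0.588% and 1.84% of all genes tested. Without B, 9 were lower and the same 2 higher, beside 4.23% and 10.2% of all genes tested. The median difference was -0.565 with B and -0.872 without, and by library -0.887 in A, 0.163 in B and -0.841 in C. *Opn1mw*, the medium-wavelength opsin, had 28.5, 129.5 and 36.8 CPM in *E168d2/+*, 120.3, 113 and 118 in *E168d2neo/+* and 229, 222 and 229 in WT (-1.18 ± 0.44, FDR 0.14, and -1.85 ± 0.097, FDR 1.59e-05 without B). *Opn1sw*, the short-wavelength opsin, had 80.4, 169 and 67.2 against 139, 117 and 144 (-0.85 ± 0.1, FDR 0.00116 without B). In both opsins B was above every *E168d2neo/+* library and A and C were below all of them.

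*Pde6h*, the inhibitory subunit of the cone phosphodiesterase, had 9.53, 54.2 and 11.9 CPM against 58.8, 50.2 and 54.04 (-1.56 ± 0.51, FDR 0.109, and -2.34 ± 0.11, FDR 7.24e-06 without B). *Arr3*, cone arrestin, had 59.3, 165 and 89.03 against 159, 135 and 145 (-0.61 ± 0.28, FDR 0.219, and -1.01 ± 0.14, FDR 0.00313 without B). *Cnga3*, the cone channel alpha subunit, had 0.412, 10.98 and 0.902 against 7.96, 7.69 and 7.13, so that A and C were under 1 CPM and B was the highest of the 6 (-3.42 ± 0.26, FDR 9.23e-05 without B). *Gnat2*, cone transducin alpha, the phosphodiesterase gene *Pde6c*, *Gngt2* and *Kcnv2* differed by -0.98, -0.89, -0.85 and -0.56 without B. Over the 11 genes called without B its position had a median of 0.00011, from -0.399 for *Opn1sw* to 0.889 for *Gnb3*.

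The higher members were called with and without B. *Cngb3*, the beta subunit of the cone channel, had 75.5, 61.7 and 66.6 CPM in *E168d2/+*, 44.2, 44.4 and 44.6 in *E168d2neo/+* and 23.1, 25.3 and 24.8 in WT (0.61 ± 0.077, FDR 0.00902). The 3 groups did not overlap, and the order was WT, *E168d2neo/+*, *E168d2/+*. *Gnb3*, the cone transducin beta subunit, had 386, 397 and 427 against 331, 349.6 and 319.7, and WT had 374, 412 and 387 (0.27 ± 0.059, FDR 0.0483). With 6 libraries the *Gnb3* call was lost with libraries scaled to a common median (FDR 0.0641). It held in 1 of the 6 fits that left out a library, and the *Cngb3* call in 3 of the 6. The 2 subunits of the cone channel, *Cnga3* and *Cngb3*, thus differed in opposite directions in A and C.

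**Figure D3:**
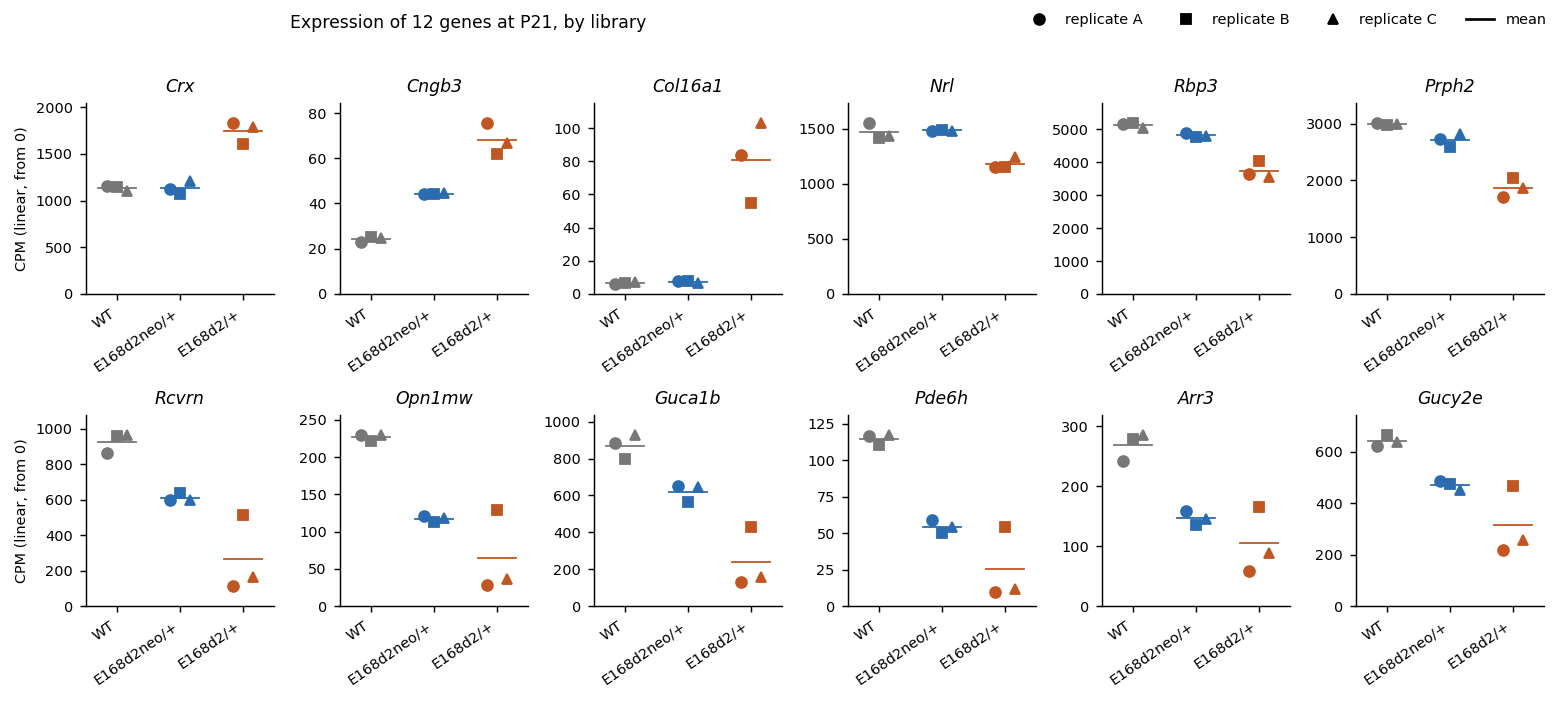
Each panel gives 1 gene at P21 with CPM from 0 on a linear axis and the libraries of WT, *E168d2neo/+* and *E168d2/+* as points, marked by replicate letter, with a line at each group's mean. In the upper row *E168d2/+* replicate B (square) lies nearer to the mean of A and C than to that of *E168d2neo/+*, as for *Crx*. In the lower row it lies nearer to the *E168d2neo/+* mean, as for *Rcvrn*.

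Genes of the photoreceptor visual cycle, which recycles retinal, were lower for 1 of 7 with 6 libraries (*Rbp3*), and 0 were higher. Without B, 3 of 7 (42.9%) were lower and 0 higher, beside 4.23% and 10.2% of all genes tested. *Rbp3* had 3644, 4035 and 3564 CPM against 4897, 4782 and 4787 and 5180.4, 5194 and 5035 in WT (-0.37 ± 0.08, FDR 0.0494), with the groups apart. The *Rbp3* call was lost with libraries scaled to a common median (FDR 0.0555). *Rdh12*, a retinol dehydrogenase of inner segments, had 139, 264 and 155 against 239, 243 and 246 (-0.44 ± 0.19, FDR 0.189, and -0.72 ± 0.058, FDR 0.000116 without B), and *Rdh11* differed by -0.32 without B. *Abca4*, the flippase that clears retinal from discs, had 1168, 1450.2 and 1233 CPM against 1351, 1363 and 1373 and did not pass (-0.092 ± 0.082, FDR 0.511, and -0.18 ± 0.056, FDR 0.0584 without B).

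For genes of the outer segment and its cilium, 3 of 40 (7.5%) were lower and 0 higher with 6 libraries, beside 0.588% and 1.84% of all genes tested. Without B, 13 (32.5%) were lower and 3 (7.5%) higher, beside 4.23% and 10.2%. *Prph2*, the tetraspanin of disc rims, had 1702, 2043 and 1876 CPM in *E168d2/+*, 2739, 2595 and 2812 in *E168d2neo/+* and 3011, 2983 and 2987 in WT (-0.54 ± 0.081, FDR 0.0176). *Arl3*, a small GTPase that releases lipidated cargo in the cilium, had 123, 136 and 133 against 169, 162 and 167.5 (-0.34 ± 0.056, FDR 0.0233), and the third was *Fscn2*. *Rom1*, the partner of PRPH2, had 1201, 1222 and 1309 against 1491, 1485 and 1487 and missed the threshold with B (-0.26 ± 0.06, FDR 0.0562). *Cep164*, a protein of centriole appendages, had 64.01, 158 and 81.9 against 184, 174 and 167, with B just below the *E168d2neo/+* libraries (-1.27 ± 0.094, FDR 7.67e-05 without B). The genes higher without B, a share below that over all genes tested, were *Prom1*, *Rpgr* and *Spata7*, at 0.43, 0.29 and 0.44. They encode proteins of disc formation and of the connecting cilium.

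Of 22 genes of the photoreceptor synapse 0 were called with 6 libraries. Without B, 10 (45.5%) were lower and 0 higher, beside 4.23% and 10.2% of all genes tested. *Cabp4*, a calcium-binding regulator of the terminal's calcium channel, had 21.1, 80.00 and 32.02 CPM against 92.8, 89.05 and 87.4 (-1.24 ± 0.37, FDR 0.0908, and -1.78 ± 0.14, FDR 0.000111 without B). *Elfn1*, an adhesion protein that links rods to bipolar cells, had 36.9, 83.7 and 39.1 against 88.2, 87.6 and 70.5 (-1.10 ± 0.097, FDR 0.00023 without B), and *Slc17a7*, the vesicular glutamate transporter, 1149.6, 1450.2 and 1348 against 1553, 1582 and 1569 (-0.33 ± 0.073, FDR 0.0197 without B). For *Elfn1* B was in the range of *E168d2neo/+*. In these 3 genes A was the lowest library.

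Among 22 transcription factors of photoreceptors tested, 1 was higher (*Crx*, 4.55%) and 3 lower (13.6%) with 6 libraries, beside 1.84% and 0.588% of all genes tested. *Nrl*, which specifies rods, had 1153, 1152 and 1244 CPM in *E168d2/+*, 1481, 1492 and 1483 in *E168d2neo/+* and 1551, 1419 and 1436 in WT (-0.33 ± 0.06, FDR 0.0338). *Rax* had 38.9, 41.1 and 41.3 against 56.9, 57.1 and 46.9 (-0.40 ± 0.084, FDR 0.0463), and *Sall3* 7.47, 8.52 and 6.56 against 12.3, 11.04 and 10.5 (-0.58 ± 0.12, FDR 0.0463). These 3 factors act in the development of photoreceptors. B lay with A and C for *Nrl* and *Rax*, at positions of 1.18 and 0.91, and partway towards *E168d2neo/+* for *Sall3*, at 0.58. Without B, 5 were lower (22.7%) and 4 higher (18.2%), beside 4.23% and 10.2% of all genes tested. *Esrrb* and *Mef2c* were then lower as well and *Samd7* and *Casz1* higher, at -0.36, -0.84, 0.46 and 0.19. *Mef2c* had 11.7, 39.8 and 12.8 CPM against 27.9, 17.7 and 21.5, so that B was the highest of the 6. *Nr2e3*, *Otx2* and *Rxrg*, partners of CRX and a receptor of cones, did not pass with B (0.031 ± 0.10, FDR 0.878; -0.12 ± 0.056, FDR 0.233; 0.00046 ± 0.13, FDR 0.999).

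Of 23 genes of photoreceptor metabolism and survival, 1 (*Hk2*) was lower with 6 libraries and 10 (43.5%) were lower without B, with 0 higher in either. Over all genes tested 4.23% were lower and 10.2% higher without B. *Nxnl1*, which encodes the rod-derived cone viability factor, had 80.2, 157 and 115 CPM against 186, 181 and 180 (-0.69 ± 0.19, FDR 0.0776, and -0.92 ± 0.12, FDR 0.00203 without B). *Ldha*, lactate dehydrogenase, *Slc2a1*, a glucose transporter, and *Impdh1*, of guanine nucleotide synthesis, differed by -0.21, -0.32 and -0.25 without B. *Ckmt1*, a mitochondrial creatine kinase, had 55.1, 100.2 and 64.3 against 75.4, 75.8 and 69.2, with B again above all other libraries.

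The lists of genes higher in rods or in cones, which the study drew from other retinas (WT and *Nrl* knockout), were also counted. Of 244 rod-enriched genes tested, 15 were lower and 4 higher with 6 libraries, and 103 lower and 20 higher without B, with medians of -0.119 and -0.233. Of 361 cone-enriched genes, 12 were lower and 16 higher, and 40 lower and 55 higher without B, with medians of 0.00484 and 0.00691. With 6 libraries, 4.43% of the cone-enriched genes were higher and 3.32% lower, and 1.64% and 6.15% of the rod-enriched genes. Over all genes tested these shares were 1.84% and 0.588%. Without B, 15.2% of the cone-enriched genes were higher and 11.1% lower, and 8.2% and 42.2% of the rod-enriched genes. Over all genes tested 10.2% were then higher and 4.23% lower. *Fhod3*, a formin that assembles actin, was the rod-enriched gene with the lowest p, at 72.3, 74.97 and 67.2 CPM against 98.7, 96.7 and 104 (-0.48 ± 0.061, FDR 0.00902). The rod-enriched genes higher with 6 libraries, a share near that over all genes tested, were *Col4a3*, *5430407P10Rik*, *Ebpl* and *Rab3il1*. *Rab3il1*, an exchange factor for Rab GTPases, had 17.6, 11.7 and 14.3 CPM against 5.64, 5.54 and 7.44 (1.21 ± 0.17, FDR 0.0128).

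**Figure D4:**
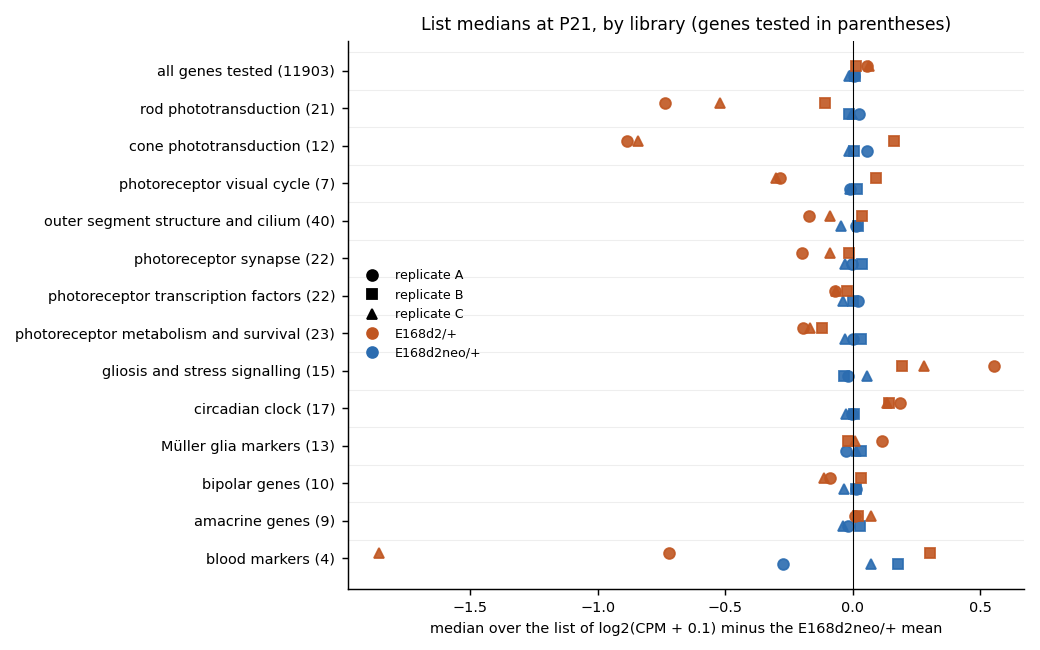
For 13 gene lists and all genes tested, the median over the genes of log2(CPM + 0.1) minus the *E168d2neo/+* mean is plotted on the horizontal axis for each of the 6 libraries, marked by replicate letter. Rod and cone phototransduction lie at -0.735 and -0.887 in *E168d2/+* A and at -0.11 and 0.163 in B, and the 4 blood genes spread widely in both groups.

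Some genes of gliosis and stress were higher in *E168d2/+*. Of 15 tested, 3 were higher and 0 lower with 6 libraries, beside 1.84% and 0.588% of all genes tested. Without B, 7 (46.7%) were higher and 0 lower, beside 10.2% and 4.23%. The list median was 0.364 in both fits, against 0.0431 with B and 0.0618 without over all genes tested. *Cp*, ceruloplasmin, had 239, 243 and 223 CPM against 184, 176 and 191 (0.35 ± 0.057, FDR 0.0231), *C4b*, a complement component, 11.02, 8.47 and 5.91 against 4.53, 3.58 and 3.72 (1.05 ± 0.21, FDR 0.0425), and *Stat3* 127, 95.2 and 116 against 83.6, 81.3 and 84.99 (0.43 ± 0.094, FDR 0.0497). WT had 3.18 to 11.7 CPM of *C4b*, a range that covered all 6 mutant libraries. *Gfap*, the intermediate filament of reactive glia, had 21.6, 16.8 and 21.5 against 14.5, 13.6 and 16.1 (0.43 ± 0.12, FDR 0.0776, and 0.55 ± 0.097, FDR 0.00871 without B), and WT had 14.7, 13.7 and 19.6. The metallothionein gene *Mt2* had 76.8, 28.4 and 29.1 against 17.7, 18.7 and 21.5, where A alone was far above the rest.

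Of 18 genes of cell death, 0 passed with 6 libraries. Without B, 4 (22.2%) were higher and 2 (11.1%) lower, beside 10.2% and 4.23% of all genes tested. *Cdkn1a*, a cell cycle inhibitor, had 88.6, 17.2 and 24.4 CPM against 9.89, 8.77 and 16.7, mostly through A (1.55 ± 0.50, FDR 0.107, and 2.03 ± 0.45, FDR 0.0211 without B). *Bcl2l11*, which encodes the cell death promoter BIM, had 40.6, 27.7 and 33.8 against 22.96, 24.7 and 25.8 and *Bcl2*, a survival gene, 7.62, 10.9 and 7.72 against 10.8, 11.96 and 12.1. Without B they differed by 0.60 ± 0.096, FDR 0.00592 and -0.59 ± 0.11, FDR 0.01. Of 14 genes of the unfolded protein response, 0 passed in either fit, with medians of -0.0304 and -0.0459.

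Markers of other cells were counted as well. With lists this short, the 2.43% of all genes called with 6 libraries would leave most lists with 0, so a count of 0 says little. Without B, 10.2% of all genes tested were higher and 4.23% lower. Of 13 Müller glia markers, 0 were called with 6 libraries and 1 each way (*Cd9* higher, *Car2* lower) without B. Their summed level was 5024 to 5780 CPM in *E168d2/+* and 4948 to 5174 in *E168d2neo/+*. Of 4 microglia markers tested, 0 were called in either fit, with sums over the 10 in the table of 74.6 to 86.1 and 67.3 to 71.9 CPM. Of 10 bipolar, 9 amacrine and 9 ganglion cell genes, 0 were called with 6 libraries and 1, 0 and 1 were lower without B. Of 6 horizontal cell genes 4 were lower without B, by 0.22 (*Ndrg1*) to 0.34 (*Lhx1*) on the log2 scale. Of 6 astrocyte and oligodendrocyte markers tested, 0 were called with 6 libraries and 3 were higher without B, and all 6 differences were above 0 with a median of 0.371 with B and 0.458 without. *Mbp*, of myelin, differed by 0.53 ± 0.065, FDR 0.00142 and *Aldh1l1*, of astrocytes, by 0.40 ± 0.094, FDR 0.0252 without B, and the other was *Gfap*. Of 16 markers of pigment epithelium and pigment cells, 0 were called, although their sum was 1544 CPM in *E168d2/+* A and 794.5 to 1137 in the other 5. The pigment gene *Pmel* had 218 CPM in *E168d2/+* A and 19.9 to 94.0 in the other 5. *Rpe65*, of pigment epithelium, had 25.9 and 7.81 to 21.1, and *Trpm1* 459 and 351 to 442. The sum thus mixes genes that differ widely in level and spread, and is not a measure of pigment epithelium alone.

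Hemoglobin genes, markers of blood left in the retina, were low in A and C as well. *Hbb-b1* had 42.4, 76.7 and 15.9 CPM in *E168d2/+* and 47.9, 64.3 and 63.9 in *E168d2neo/+*, and all 4 hemoglobin genes tested were lower without B and 0 with it. In WT *Hbb-b1* spread from 31.4 to 154.8 CPM. *Tie1*, a receptor of endothelial cells, was the only vessel marker of 13 called with 6 libraries, at 5.51, 4.43 and 5.46 CPM against 8.01, 9.12 and 7.64 (-0.68 ± 0.13, FDR 0.0388). Without B, 3 of the 13 (23.1%) were lower and 0 higher, beside 4.23% and 10.2% of all genes tested. *Tie1* was lower by 0.58, *Ly6c1* by 0.61 and *Rgs5*, a marker of pericytes, by 0.35 on the log2 scale. The list median without B was -0.257. The part of blood or vessels in the other differences was not tested.

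Of 17 clock genes, 1 was higher with 6 libraries (*Tef*, 405, 358 and 395 CPM against 314, 321 and 313, 0.29 ± 0.059, FDR 0.0448) and 5 were higher without B, with 0 lower. That is 5.88% and 29.4%, beside 1.84% and 10.2% of all genes tested. Of 10 immediate early genes, 0 were called with 6 libraries and 6 (60.0%) were lower without B, beside 4.23% of all genes tested. *Nr4a1* had 19.2, 29.8 and 19.9 CPM against 32.8, 30.4 and 25.6, and *Ier3* 10.6, 31.3 and 10.2 against 14.1, 13.5 and 15.3, with B at the level of *E168d2neo/+* in the first and above it in the other. *Xist*, which is expressed in females, had 1879.5, 1479 and 1814 CPM against 1538, 1454 and 1126 (0.33 ± 0.13, FDR 0.146, and 0.44 ± 0.12, FDR 0.0355 without B), and the summed Y-linked genes 153.1 to 180.7 CPM against 149.5 to 164.2, so that all 6 pools held both sexes. Whether the share of female tissue or the time of collection has a part in the differences was not tested.

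Outside the lists, the largest falls without B were in *Gm16862*, *Alpl*, *Gpr152*, *Igsf9* and *2610034M16Rik*. *Alpl*, tissue-nonspecific alkaline phosphatase, had 12.3, 102 and 14.3 CPM against 93.9, 92.01 and 90.2, with 169, 191 and 194 in WT (-1.80 ± 0.64, FDR 0.126, and -2.78 ± 0.077, FDR 3.26e-07 without B). *Igsf9*, an adhesion protein of the immunoglobulin family, had 14.6, 105 and 20.7 against 68.5, 63.6 and 71.9 (-1.96 ± 0.13, FDR 4.22e-05 without B), and *Gpr152*, an orphan receptor, 5.10, 30.7 and 9.87 against 45.4, 36.7 and 32.3 (-2.40 ± 0.24, FDR 0.000485 without B). *Gm16862* and *2610034M16Rik* had 2.01, 31.1 and 3.16 against 22.9, 18.8 and 22.8 and 47.9, 184 and 70.1 against 225, 203 and 184. B was above all *E168d2neo/+* libraries for *Alpl*, *Igsf9* and *Gm16862* and just below them for *Gpr152* and *2610034M16Rik*.

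The same genotypes were sampled at P10 in 6 other libraries. There 102 of 11966 genes (0.852%) passed, 40 higher (0.334%) and 62 lower (0.518%) in *E168d2/+*. The count was 29, 18 and 226 without *E168d2/+* A, B and C of that age, and 25, 35 and 16 without *E168d2neo/+* A, B and C. Of the 58 lower genes tested at both ages, 3 (5.17%) were also lower at P21 with 6 libraries and 29 without B, beside 0.588% and 4.23% of all genes tested at P21. Their median difference was -0.521 at P10, and -0.213 with and -0.247 without B at P21. Of the 39 higher genes, 7 (17.9%) were higher at P21 with 6 libraries and 13 (33.3%) without B, beside 1.84% and 10.2%. Among the 97 genes, 1 was called in the opposite direction at P21 with 6 libraries and 3 were without B.

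At P10 the 3 *E168d2/+* libraries lay apart from *E168d2neo/+* in some of the genes in which B stood apart at P21. *Pde6h* had 2.99, 2.33 and 1.71 CPM in *E168d2/+* against 15.8, 15.8 and 15.7 (-2.73 ± 0.18, FDR 0.000236), and *Arr3* 7.73, 5.23 and 5.55 against 19.3, 16.7 and 17.5 (-1.53 ± 0.15, FDR 0.00238). *Rcvrn* had 60.7, 53.5 and 33.4 against 91.9, 109 and 116 (-1.14 ± 0.19, FDR 0.032). *Opn1sw*, *Pde6c*, *Igsf9* and *Fscn2* were lower at P10 too, by 0.47, 0.64, 0.77 and 0.90 on the log2 scale, and *Cngb3* and *Rxrg* were higher, *Rxrg* by 0.55 and *Cngb3* with 112, 109 and 107 against 80.9, 68.6 and 78.8 (0.52 ± 0.074, FDR 0.0199). Rod phototransduction had a median of -0.0903 at P10, where 2 of 20 genes tested were lower and 1 higher. Cone phototransduction had a median of -0.353, where 4 of 11 were lower and 1 higher. Over all genes tested at P10 the median was 0.0156, with 0.518% lower and 0.334% higher.

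**Figure D5:**
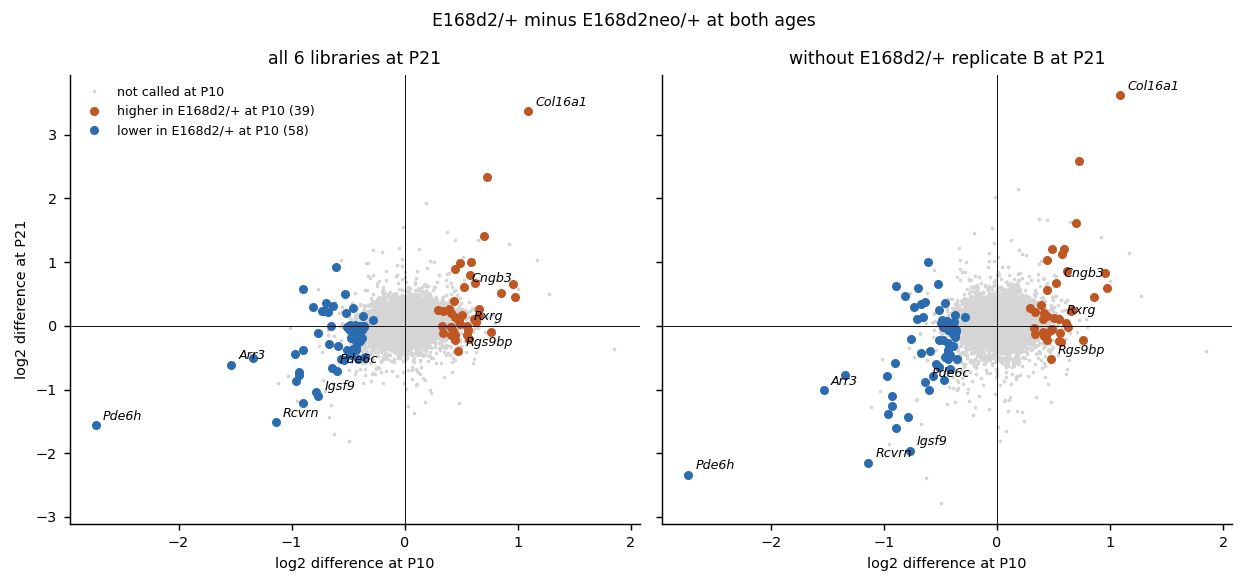
Each point is a gene tested at both ages, with the log2 difference, *E168d2/+* minus *E168d2neo/+*, at P10 on the horizontal axis and at P21 on the vertical axis, with all 6 P21 libraries on the left and without replicate B on the right. Of the 58 genes lower at P10, *Pde6h* is at -2.73 at P10 and at -1.56 and -2.34 at P21, and *Col16a1*, of the 39 higher, is the highest at P21.

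The difference between the ages was tested as an interaction over the 12 libraries. It passed for 149 of 12319 genes (1.21%), 108 with a higher difference at P21 (0.877%) and 41 with a lower one (0.333%). Without *E168d2/+* P21 B it passed for 832 (6.75%), 562 higher at P21 (4.56%) and 270 lower (2.19%), with 140 of the 149 among them. It was 71 and 48 without *E168d2/+* P21 A and C, 38 and 22 without *E168d2neo/+* P21 A and B, 40 and 35 without *E168d2/+* P10 A and B, and 42, 67 and 38 without *E168d2neo/+* P10 A, B and C. In rod phototransduction 1 gene passed with B, *Rgs9bp*, which was higher in *E168d2/+* at P10 (0.47 ± 0.085, FDR 0.0446) and lower at P21 without B. In rod phototransduction 7 passed without B, and in cone phototransduction 0 passed with B and 5 without. *Col16a1* had 58.9, 53.2 and 59.3 CPM against 25.5, 31.3 and 23.9 at P10, beside 83.5, 54.97 and 103 against 7.57, 8.04 and 6.73 at P21. Its difference was 1.09 ± 0.10, FDR 0.00238 at P10 and grew by 2.28 (interaction FDR 0.000896). *4932418E24Rik* had the opposite sign at the 2 ages, at -0.61 at P10 and 0.93 at P21.

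By chromosome, over the autosomes and X, the share of genes tested that was called with 6 libraries ran from 1.46% to 3.72% and the share called without B from 11.9% to 16.8%. The lowest share without B was on chromosome 7, which holds *Crx*, and the highest on chromosome 2.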

How the data were processed

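The authors deposited, for the 30 libraries of the series, a table of CPM values (read counts of a gene scaled to a common library total) for 12573 genes. Per the submitters' processing notes, reads were aligned to mm9 with TopHat2 2.0.5, counted with HTSeq 0.6.1p1 and scaled with edgeR 3.6.8. The table also holds 32 columns of the authors' own comparisons (deposited log2 fold changes, log2 CPM, p-values and FDR), which were not used. The study's methods name poly(A) selection and its records also name a ribosomal depletion kit, and which was used was not settled here.

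From the CPM, genes at 5 CPM or more in all 3 libraries of either group were kept, 10 crystallin genes were left out, and log2(CPM + 0.1) was tested with limma 3.58.1 (trended empirical Bayes, R 4.3.3) and a Benjamini-Hochberg FDR of 0.05, with and without *E168d2/+* P21 replicate B. Adjusted p-values in the text are from these fits. Only the groups compared entered each fit, and the P10 fit and the interaction were made in the same way. A count test on reads recovered from the CPM was planned as an alternative. It was not run, although low values came out as whole reads, because the recovery was not accepted in a check of the deposited unit. Depth was judged by the CPM that a single read is worth in each library (18300000 to 26000000 reads on genes). Per the labels each library is a pool of 4 retinas, and nothing in the labels pairs pools between groups, so p-values measure the spread between pools. The code was tested on simulated data, and Python 3.11.15, pandas 2.3.3, numpy 2.4.6 and matplotlib 3.10.9 were used for the summaries and plots.

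The members, gene lists and tests were chosen with earlier results of these data known, and replicate B was left out with its values known. The genes named were *Crx*, in each P21 fit the 10 genes with the largest rise and the 10 with the largest fall that passed without overlap, up to 4 members of each list with the lowest p, every called member of the lists on phototransduction, visual cycle and transcription factors, genes that the study discusses, and the 6 lowest p of the interaction. *Bbc3*, *Cep164*, *Ckmt1*, *Crxos1*, *Ebpl*, *Elfn1*, *Ier3*, *Impdh1*, *Ldha*, *Mt2*, *Prom1*, *Rpgr*, *Slc17a7*, *Slc2a1* and *Spata7* were named after their values were seen. The 20 symbols that a spreadsheet had turned into dates are not named, and some list members are counted and not reported by name here. Alternatives were the scaling, the pseudocount, the filter, the samples in the fit, the trend, library weights, a replicate block and leaving out each library.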

Additional observations from a re-analysis of the deposited data

Results flagged for a closer look

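The 6 genes with the lowest p for a difference between the ages were singled out because the contrast of *E168d2/+* with *E168d2neo/+* was not the same at P21 and P10 by the interaction test in limma over 12 libraries. The P21 minus P10 difference in log2 was 2.28 for *Col16a1*, 1.75 for *Gm12802*, 1.54 for *4932418E24Rik*, 1.31 for *C030048H21Rik* and 0.96 for *Col27a1*, and it was -1.14 for *Cd93*.

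Crystallins, which no comparison used, summed to 13210 CPM in *E168d2neo/+* replicate C and to 36.4 to 97.6 in the other 5 libraries, while WT held 48.6 to 61.2. Groups of 3 libraries were not tested for single far values.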

How the results depend on the processing

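With 6 libraries at P21 the count of 289 became 176 after median scaling (50.6% lower against 24.2%), 179 after quantile normalization (42.5% lower), 111 without a trend, 1113 with all 4 groups of the age in the fit and 1341 with library weights, and it ran from 12 to 1719 when a library was left out. Without B, 1719 became 1075 without a trend, 1267 after median scaling (58.8% lower against 29.3%) and 1233 after quantile normalization (52.4% lower), and 467 to 2632 when a further library was left out. At P10, 102 became 744 with all 4 groups and 3308 with weights, and ran from 16 to 226. The interaction, 149, became 2107 with weights and 158 after median scaling (45.6% lower against 27.5%), and ran from 22 to 832. The weights were not converged at P10 and in the interaction. With a replicate block the counts were 54, 342, 620 and 72. No label pairs the libraries by letter. The correlations of same-letter deviations were -0.223, 0.043 and -0.0399 at P21 and -0.303, 0.379 and 0.216 at P10 for A, B and C. Whether libraries of the same letter share a source of variation was not tested. Of 41 named genes called with 6 libraries, 18 were called under all 11 other settings, 6 after leaving out any single library and 0 changed sign. Of 113 called without B these numbers were 63, 73 and 0. The edgeR and DESeq2 alternatives were not run. The causes were not tested. Genes under 5 CPM in both groups, which stands for 91.5 to 130 reads, were not examined.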
